A study of Homo sapiens with 27 samples.

Results

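The BCL2 family apoptosis regulators described here are 10 genes, taken by gene symbol from a table of 20268 protein-coding genes. The 3 pro-survival members (BCL2, BCL2L1 and MCL1) were kept apart from 7 pro-death members, which are the effectors BAX and BAK1 and the BH3-only genes BBC3, PMAIP1, BCL2L11, BID and BAD. Their mRNA was measured by RNA-seq in LNCaP cells, a hormone-sensitive human prostate cancer line, and in LNCaP95 and 22Rv1 cells, both hormone-insensitive lines. Each line was stably infected with lentivirus carrying a non-silencing hairpin (CTRL sh) or a hairpin against CPSF1, of which there were 2 (named CPSF1 sh1 and CPSF1 sh2). CPSF1 is a subunit of the complex that cleaves and polyadenylates pre-mRNA. All cells, controls included, had been selected with puromycin and were grown for 72 h after 500000 cells had been seeded per well, as expanded infected populations and not as single clones. LNCaP and 22Rv1 cells grew in RPMI medium with serum, and LNCaP95 cells in the same medium without phenol red. The medium therefore differed between LNCaP95 and the other lines in every arm, and its part in a difference between lines cannot be told apart from that of the line. The 9 groups held 3 biological replicates each, 27 libraries in all.

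Apoptosis through the mitochondria is set by the balance within this protein family. Pro-survival proteins hold the effectors BAX and BAK1 in check, and BH3-only proteins bind the pro-survival proteins or the effectors and so favour opening of the outer mitochondrial membrane and release of cytochrome c. MCL1 is a short-lived protein. BCL2L1 encodes the pro-survival BCL-XL and a shorter splice form of opposite effect, and BCL2 is the founding member. BAX, BBC3 (PUMA) and PMAIP1 (NOXA) are well-known targets of p53. Counts per gene do not separate splice forms, and mRNA does not measure protein or its position in the cell.

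Since CPSF1 acts at poly(A) sites, the sites of 6 members whose changes are described most fully are printed, each as 30 bases read 5′ to 3′ around the hexamer that precedes the annotated 3′ end. Capitals mark the hexamer, coordinates are in GRCh37 (hg19), and the sequence and canonical transcript come from the GENCODE annotation lifted to that build.
BAX (chr19:49465026-49465055, plus strand): gagggggtAATAAAcctccttcgggacaca
MCL1 (chr1:150547031-150547060, minus strand): gaaaaaaaAATAAAtcttttattcaaatac
BCL2L1 (chr20:30252263-30252292, minus strand): agttcagtAATAAActgtgtttactcagtg
PMAIP1 (chr18:57571511-57571540, plus strand): agtaaactATTAAAagttttcactgttctt
BBC3 (chr19:47724082-47724111, minus strand): tccttttcAATAAAatcagattggaacagt
BID (chr22:18216905-18216934, minus strand): tgtttggaAATAAAtcttcctaacactacg

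The canonical transcripts of 9 of the 10 members carry AATAAA, and that of PMAIP1 carries the variant ATTAAA, 13 to 18 bases before the end. Of 19894 canonical protein-coding transcripts, 63.4% hold AATAAA in their last 50 bases and 13.9% hold ATTAAA without it. Only these 2 letter strings were searched, on the transcript strand. BAX, which rose, and MCL1, which fell, both carry AATAAA, and use of the sites was not measured by these counts. The printed bases of MCL1 and PMAIP1 run past the annotated end of the canonical transcript.

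The summed count over genes was 8515624 in the shallowest library and 15904518 in the deepest, with a median of 11058723. CPSF1 mRNA, the target of both hairpins, was 1.38 to 1.86 times lower than with CTRL sh in the 6 comparisons of a hairpin with its control, and the knockdown libraries of each line lay below all CTRL sh libraries. HOXB13, a prostate transcription factor, ranged from 348 to 616 CPM over the 27 libraries, and the luminal keratins KRT8 and KRT18 from 378 to 919 CPM and from 257 to 420.2 CPM. These 3 were picked after their values were seen, and others of the luminal markers varied far more, the widest from 36.7 to 2058 CPM. Of 5 markers of other cells, PTPRC and CD3E did not exceed 0.301 CPM, and the sum of all 5, mostly COL1A1 and VWF, was 11.1 to 75.3 CPM. Replicate 3 of 22Rv1 CPSF1 sh1 stood apart from its group, with a chi-square per degree of freedom of 7.31 and 4.56 against replicates 1 and 2, which gave 1.97 against each other. In LNCaP95 CTRL sh, replicates 1 and 2 differed by 5.22. All other pairs lay between 1.39 and 3.43.

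All 10 members exceeded 2 CPM in all 27 libraries and were tested in every comparison. CPM are counts scaled to a common library size, after TMM normalization except in the 2 CPM filter, which used library size alone. Depth differed among them. BCL2 rested on 48 to 256 counts per library and BID on 72 to 481, while MCL1 had 2375 to 5576. In the following text a gene is called where its adjusted p-value from edgeR was below 0.05, fold changes are on the log2 scale with their standard error (SE), and CPM values are given in the order of replicates 1, 2 and 3.

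In control cells, MCL1 was the most abundant member per length of exon in each line and BCL2 was at or near the bottom. In LNCaP CTRL sh cells, MCL1 stood at 84.95 ± 1.702 CPM per kb (SD, n = 3), BCL2L1 at 38.9 ± 1.702, BAD at 38.3 ± 1.13, BAX at 29.3 ± 0.551 and BAK1 at 17.5 ± 0.557 CPM per kb. PMAIP1 (11.97 ± 0.911), BCL2L11 (9.39 ± 0.455), BID (8.24 ± 0.785) and BBC3 (8.06 ± 0.998) followed, and BCL2 was at 0.957 ± 0.142 CPM per kb. The ranges of BCL2L1 and BAD overlapped, as did those of BCL2L11 and BID and of BID and BBC3.

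The order differed in the other lines. In LNCaP95 CTRL sh cells, MCL1 (84.3 ± 2.27 CPM per kb) was followed by BAD (36.9 ± 2.53), BCL2L1 (28.3 ± 2.27), BAK1 (21.5 ± 1.72) and BAX (19.9 ± 1.7002), the latter pair with overlapping ranges. In 22Rv1 CTRL sh cells, MCL1 (109 ± 2.003 CPM per kb) was followed by BAX (45.6 ± 1.88) and BAD (43.98 ± 0.781), whose ranges overlapped, and then by BBC3 (20.7 ± 1.85) and BCL2L1 (18.8 ± 0.984), whose ranges overlapped too. BID (2.44 ± 0.199) and BCL2 (2.44 ± 0.2302) could not be ordered in 22Rv1 cells.

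Between control lines, 22Rv1 cells stood apart from both others at most members. Against LNCaP cells, 22Rv1 cells had more BBC3 (2.61-fold, log2 difference 1.39, SE 0.094, adjusted p = 7.58e-14), BCL2 (2.58-fold, 1.37, SE 0.14, adjusted p = 4.11e-10), BAX (1.58-fold, 0.66, SE 0.061, adjusted p = 7.22e-11), MCL1 (0.38) and BAD (0.22). They had less BID (3.35-fold lower, -1.74, SE 0.11, adjusted p = 7.35e-15), BCL2L1 (2.03-fold lower, -1.02, SE 0.057, adjusted p = 8.14e-16), PMAIP1 (-0.76) and BCL2L11 (-0.68). These are 9 of 10 members called, where 83.4% of 13636 genes were called, and BAK1 differed by -0.073 (interval -0.21 to 0.059). Against LNCaP95 cells all 10 members were called, beside 85.5% of genes, with BAX 2.35-fold higher and BID 4.205-fold lower in 22Rv1 cells.

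LNCaP95 cells, a derivative of LNCaP, differed from it at 6 members, beside 75.7% of genes called. BBC3 (0.70, SE 0.10, adjusted p = 3.92e-07), PMAIP1 (0.37, SE 0.078, adjusted p = 1.19e-04), BID (0.33) and BAK1 (0.29) were higher in LNCaP95, and BAX (-0.57, SE 0.069, adjusted p = 1.53e-08) and BCL2L1 (-0.46, SE 0.054, adjusted p = 9.65e-09) were lower. MCL1 was close in level, with 363, 350.1 and 362 CPM in LNCaP and 348, 353 and 366 CPM in LNCaP95 controls, and its difference of -0.018 had an interval of -0.093 to 0.057. The shares of members called lie near those of all genes in these 3 comparisons of lines.

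**Figure D1:**
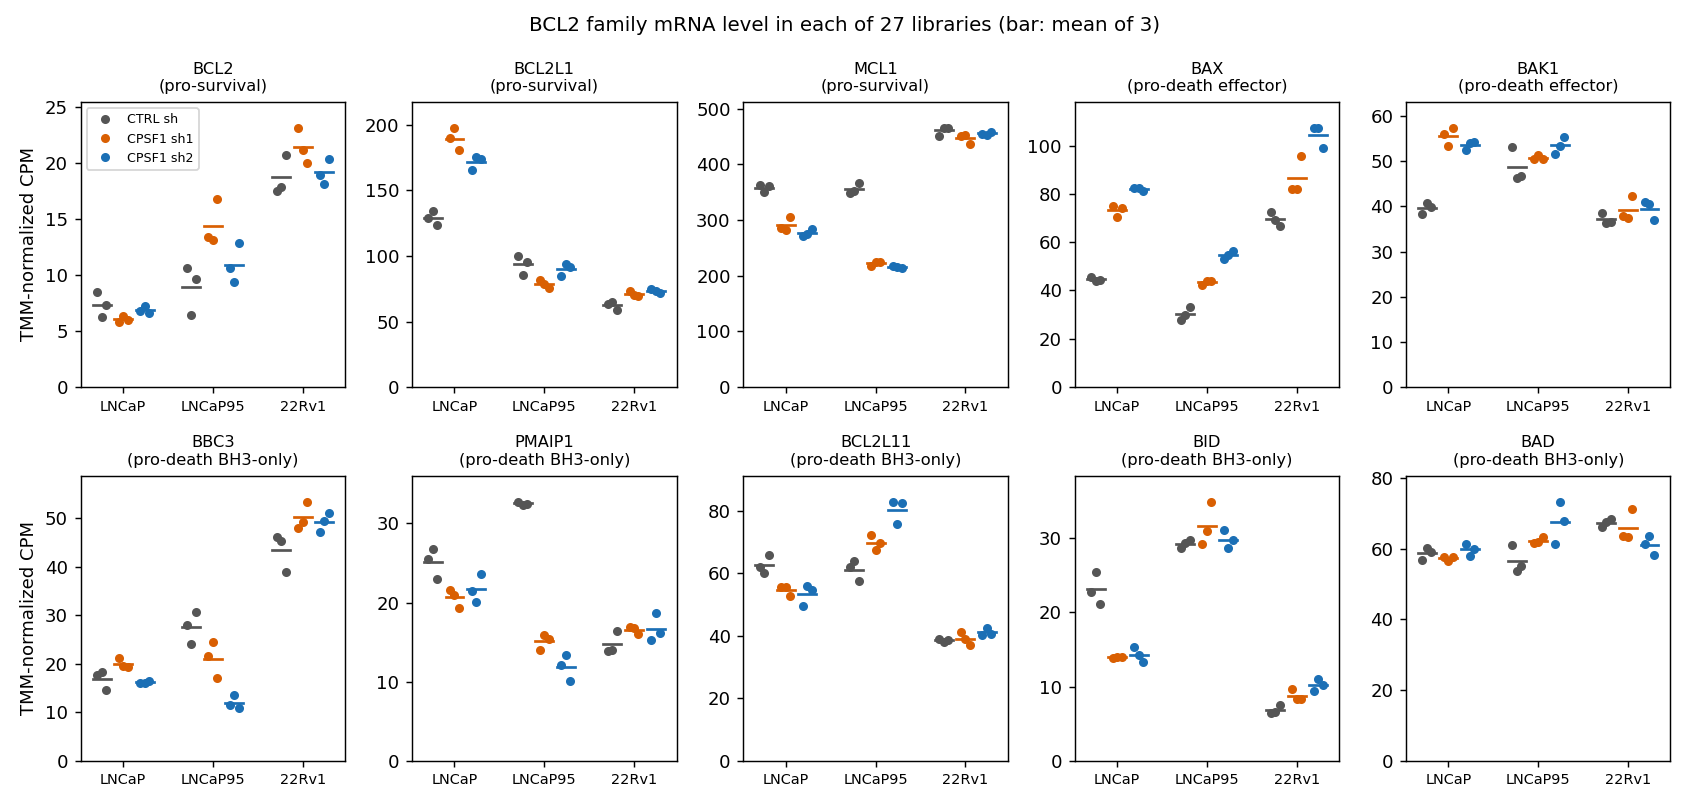
Level of each BCL2 family mRNA in 27 libraries, as TMM-normalized CPM on linear axes that start at 0, by cell line (x axis) and hairpin (colour). Points are libraries and short bars are means of 3. BAX lies higher with both CPSF1 hairpins in each line, while MCL1 and PMAIP1 lie lower in LNCaP95 and BID lies lower in LNCaP and higher in 22Rv1 cells.

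With CPSF1 knocked down, the effector BAX (chr19:49458117-49465055, plus strand, 1525 bases of exon) was the only member called the same way with both hairpins in each line. BAK1 (log2 change 0.080 to 0.49) and MCL1 (-0.67 to -0.0023) also kept their direction, but neither was called in 22Rv1 cells. Once activated, BAX and BAK1 form the pores in the outer mitochondrial membrane. In LNCaP cells, BAX was at 45.6, 43.95 and 44.4 CPM with CTRL sh, 74.97, 70.4 and 74.3 CPM with CPSF1 sh1 and 82.5, 82.6 and 81.1 CPM with CPSF1 sh2. LNCaP95 cells had 27.8, 30.02 and 33.003 CPM with CTRL sh, 42.5, 43.9 and 44.1 CPM with CPSF1 sh1 and 52.9, 54.8 and 56.3 CPM with CPSF1 sh2. BAX in 22Rv1 cells was at 72.5, 69.1 and 66.8 CPM with CTRL sh, 82.2, 81.9 and 95.5 CPM with CPSF1 sh1 and 107, 107 and 98.8 CPM with CPSF1 sh2. All 18 knockdown libraries lay above all CTRL sh libraries of their line, although the 22Rv1 CTRL sh level lay above the knockdown levels of LNCaP95. The share of all genes whose libraries separate in this way was not computed. Such separation, here and for the other members, is therefore only a description.

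The log2 fold change of BAX in LNCaP cells was 0.72 (SE 0.050, adjusted p = 1.76e-10) with CPSF1 sh1 and 0.90 (SE 0.048, adjusted p = 2.49e-12) with CPSF1 sh2. For LNCaP95 it was 0.56 (SE 0.067, adjusted p = 3.59e-07) and 0.91 (SE 0.067, adjusted p = 1.22e-10). The 22Rv1 values were 0.32 (SE 0.065, adjusted p = 0.00279) and 0.60 (SE 0.064, adjusted p = 3.28e-06). Without 22Rv1 CPSF1 sh1 replicate 3, the highest in BAX of its group, the change with CPSF1 sh1 was 0.24 (adjusted p = 0.00134). These rises were called under each alternative setting and with each library left out in turn. Of 10317 genes tested in all 6 comparisons, 2.12% were called higher in all 6 and 3.16% lower in all 6, and BAX was the only member of the 10 in either class. In bulk RNA, more BAX mRNA per cell cannot be told apart from a larger share of cells with much BAX mRNA. CPM values are also relative to the other mRNAs of a library, and the total mRNA per cell was not measured by these counts.

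BAX was also higher with CPSF1 sh2 than with CPSF1 sh1 in each line. The difference between hairpins was 0.18 (SE 0.045, adjusted p = 0.00898) for LNCaP, 0.35 (SE 0.062, adjusted p = 2.21e-04) for LNCaP95 and 0.28 (SE 0.063, adjusted p = 0.0111) for 22Rv1. In LNCaP it was 0.16 (adjusted p = 0.0598) without CPSF1 sh1 replicate 2. In 22Rv1 it was 0.26 (adjusted p = 0.0589) without CPSF1 sh2 replicate 1 and 0.24 (adjusted p = 0.0554) without CPSF1 sh1 replicate 2, and 0.35 (adjusted p = 2.35e-05) without CPSF1 sh1 replicate 3. CPSF1 mRNA itself differed between the hairpins by -0.14 (adjusted p = 0.0773) for LNCaP, 4.1e-04 for LNCaP95 and 0.067 for 22Rv1, none of them called.

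The other effector, BAK1 (chr6:33540329-33548019, minus strand, 2267 bases of exon), rose in LNCaP cells. There it was at 38.3, 40.8 and 39.9 CPM with CTRL sh, 56.1, 53.4 and 57.4 CPM with CPSF1 sh1 and 52.6, 54.01 and 54.2 CPM with CPSF1 sh2, with no overlap between knockdown and control. Its log2 fold changes were 0.49 (SE 0.056, adjusted p = 2.08e-07) and 0.46 (SE 0.054, adjusted p = 3.53e-07). LNCaP95 cells had 53.2, 46.3 and 46.8 CPM with CTRL sh, 50.6, 51.3 and 50.4 CPM with CPSF1 sh1 and 51.6, 53.5 and 55.4 CPM with CPSF1 sh2, and the groups overlapped. The change of 0.18 (SE 0.061, adjusted p = 0.0128) with CPSF1 sh2 in LNCaP95 was called, but was 0.14 (adjusted p = 0.0551) without CTRL sh replicate 2, 0.15 (adjusted p = 0.0501) without CTRL sh replicate 3 and 0.15 (adjusted p = 0.0541) without CPSF1 sh2 replicate 3. It was 0.13 (adjusted p = 0.0581) with filterByExpr and 0.12 (adjusted p = 0.12) with no filter beyond 1 count. The BAK1 change with CPSF1 sh1 in LNCaP95 was not called, and ranged from 0.041 to 0.18 over the alternatives. It was called with library size alone (0.18, adjusted p = 0.0118) and without CTRL sh replicate 1 (0.15, adjusted p = 0.0411). In 22Rv1 cells the BAK1 values were 0.080 (interval -0.055 to 0.22) and 0.10 (-0.035 to 0.24), neither called.

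Among the pro-survival members, MCL1 (chr1:150547032-150552066, minus strand, 4218 bases of exon) fell in LNCaP and LNCaP95 cells. LNCaP cells had 363, 350.1 and 362 CPM with CTRL sh, 287, 283 and 306 CPM with CPSF1 sh1 and 271, 275 and 284 CPM with CPSF1 sh2. MCL1 in LNCaP95 cells was at 348, 353 and 366 CPM with CTRL sh, 217, 225 and 225 CPM with CPSF1 sh1 and 218, 216 and 214 CPM with CPSF1 sh2. MCL1 was most abundant in 22Rv1 cells, at 451, 466 and 466 CPM with CTRL sh, 452, 454 and 437 CPM with CPSF1 sh1 and 455, 454 and 459 CPM with CPSF1 sh2. The groups did not overlap in LNCaP or LNCaP95 and did in 22Rv1 cells.

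MCL1 changed by -0.29 (SE 0.035, adjusted p = 5.90e-07) with CPSF1 sh1 and -0.35 (SE 0.035, adjusted p = 3.09e-08) with CPSF1 sh2 in LNCaP. LNCaP95 cells had it 1.57-fold lower with CPSF1 sh1 (-0.65, SE 0.039, adjusted p = 1.08e-11) and 1.59-fold lower with CPSF1 sh2 (-0.67, SE 0.040, adjusted p = 3.57e-12). The 22Rv1 intervals of -0.11 to 0.032 and -0.071 to 0.066 leave out falls of the size seen in the other lines. No difference between hairpins was called for MCL1, with values of -0.060 (interval -0.13 to 0.0091), -0.020 (-0.10 to 0.058) and 0.035 (-0.034 to 0.10).

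BCL2L1 (chr20:30252255-30311792, minus strand, 3314 bases of exon) rose in LNCaP and 22Rv1 cells and fell with CPSF1 sh1 in LNCaP95. In LNCaP cells, where it was most abundant, BCL2L1 was at 129, 135 and 123 CPM with CTRL sh, 189.7, 198 and 180.5 CPM with CPSF1 sh1 and 166, 175 and 174 CPM with CPSF1 sh2, and all knockdown libraries lay above the controls. It rose there by 0.56 (SE 0.045, adjusted p = 1.38e-09) with CPSF1 sh1 and 0.44 (SE 0.044, adjusted p = 3.86e-08) with CPSF1 sh2. LNCaP95 cells had 100.3, 85.5 and 95.4 CPM with CTRL sh, 81.5, 78.7 and 75.3 CPM with CPSF1 sh1 and 84.97, 93.5 and 91.7 CPM with CPSF1 sh2. Those with CPSF1 sh1 lay below the controls and those with CPSF1 sh2 overlapped them. The change in LNCaP95 was -0.23 (SE 0.057, adjusted p = 0.00141) with CPSF1 sh1 and -0.012 (SE 0.057, adjusted p = 0.855) with CPSF1 sh2, and the hairpins differed by 0.22 (SE 0.057, adjusted p = 0.00624). With libraries scaled by their size alone, the value with CPSF1 sh1 was -0.13 (adjusted p = 0.046). The value with CPSF1 sh2 turned to 0.065 on that scaling.

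In 22Rv1 cells BCL2L1 was at 63.4, 64.99 and 58.7 CPM with CTRL sh, 73.1, 70.2 and 69.2 CPM with CPSF1 sh1 and 74.6, 72.9 and 71.8 CPM with CPSF1 sh2, with the knockdown libraries above the controls. It was 0.19 (SE 0.055, adjusted p = 0.0232) higher with CPSF1 sh1 and 0.24 (SE 0.054, adjusted p = 0.00243) higher with CPSF1 sh2. The smaller call was lost without CTRL sh replicate 1 or 3 or CPSF1 sh1 replicate 1 or 2, and the value was lowest at 0.15 (adjusted p = 0.113) without CTRL sh replicate 3. Without CPSF1 sh1 replicate 3 it was 0.20 (adjusted p = 0.00655). It was lost with DESeq2 too (adjusted p = 0.0614).

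BCL2 (chr18:60790579-60987361, minus strand, 7665 bases of exon) itself was scarce. LNCaP95 cells had 10.6, 6.44 and 9.63 CPM with CTRL sh, 13.3, 13.1 and 16.8 CPM with CPSF1 sh1 and 10.6, 9.34 and 12.9 CPM with CPSF1 sh2, and the libraries with CPSF1 sh1 lay above the controls while those with CPSF1 sh2 overlapped them. BCL2 rose by 0.70 (SE 0.15, adjusted p = 2.83e-04) with CPSF1 sh1 and differed by 0.33 (SE 0.16, adjusted p = 0.0722) with CPSF1 sh2. The change with CPSF1 sh2 ranged from 0.14 to 0.49 over the alternatives. It was called with library size alone, the replicate block and without CTRL sh replicate 1 (0.49) or CPSF1 sh2 replicate 2 (0.43). The difference between these hairpins was -0.38 (SE 0.14, adjusted p = 0.0456), and was no longer called with DESeq2, without CTRL sh replicate 3, without CPSF1 sh2 replicate 1 or 2 or without any 1 library of CPSF1 sh1. It was -0.26 (adjusted p = 0.212) without CPSF1 sh2 replicate 2. BCL2 in LNCaP cells was at 8.45, 6.27 and 7.29 CPM with CTRL sh, 5.795, 6.32 and 6.02 CPM with CPSF1 sh1 and 6.77, 7.27 and 6.604 CPM with CPSF1 sh2, overlapping, with changes of -0.26 (interval -0.54 to 0.018) and -0.059 (-0.32 to 0.20). In 22Rv1 cells it was at 17.5, 17.9 and 20.7 CPM with CTRL sh, 23.1, 21.1 and 19.96 CPM with CPSF1 sh1 and 18.9, 18.1 and 20.4 CPM with CPSF1 sh2, with changes of 0.21 (0.028 to 0.39) and 0.056 (-0.13 to 0.24), and none of these 4 was called.

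**Figure D2:**
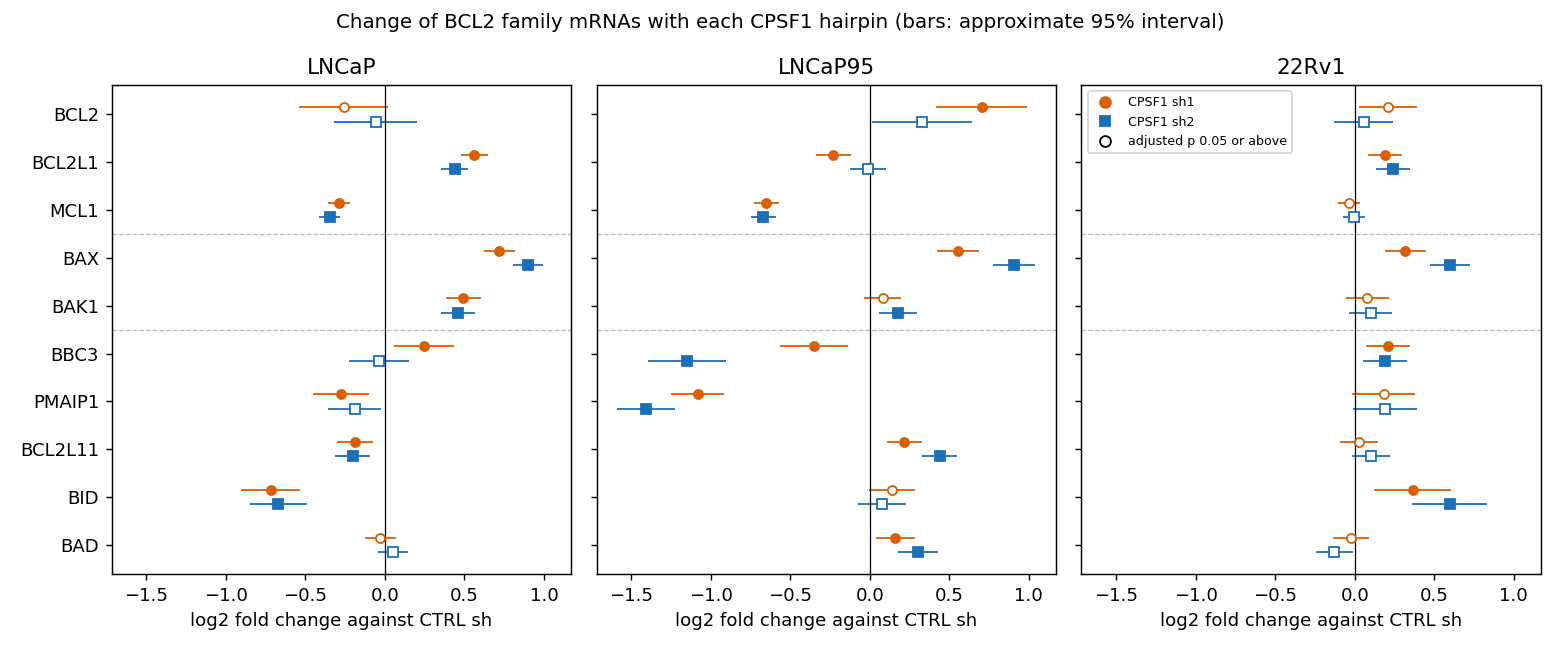
Log2 fold change of the 10 members against CTRL sh (x axis) with CPSF1 sh1 (orange circles) and CPSF1 sh2 (blue squares) in each line, with approximate 95% intervals as bars and open symbols where the adjusted p-value was 0.05 or above. Dashed lines part pro-survival members, effectors and BH3-only members. BAX lies right of 0 in all panels, and PMAIP1 and BBC3 lie left of 0 in LNCaP95.

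Of the BH3-only genes, PMAIP1 and BBC3 fell in LNCaP95 cells. PMAIP1 (chr18:57567180-57571538, plus strand, 2099 bases of exon) encodes NOXA, which binds MCL1. LNCaP95 cells had 32.8, 32.4 and 32.5 CPM with CTRL sh, 14.01, 15.96 and 15.4 CPM with CPSF1 sh1 and 12.1, 13.4 and 10.1 CPM with CPSF1 sh2, with wide separation of knockdown and control. PMAIP1 was 2.12-fold lower with CPSF1 sh1 (-1.08, SE 0.085, adjusted p = 6.92e-10) and 2.65-fold lower with CPSF1 sh2 (-1.40, SE 0.093, adjusted p = 2.15e-11). The hairpins differed by -0.32 (SE 0.10, adjusted p = 0.0184), which was -0.22 (adjusted p = 0.137) without CPSF1 sh2 replicate 3 and -0.27 (adjusted p = 0.0832) without CPSF1 sh1 replicate 2.

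In LNCaP cells PMAIP1 was at 25.5, 26.8 and 23.03 CPM with CTRL sh, 21.6, 20.98 and 19.4 CPM with CPSF1 sh1 and 21.5, 20.03 and 23.7 CPM with CPSF1 sh2, below the controls with CPSF1 sh1 and overlapping them with CPSF1 sh2. Its change was -0.28 (SE 0.089, adjusted p = 0.0105) with CPSF1 sh1 and -0.19 (SE 0.085, adjusted p = 0.0573) with CPSF1 sh2. The first was -0.23 (adjusted p = 0.0609) without CTRL sh replicate 2 and -0.23 (adjusted p = 0.0524) without CPSF1 sh1 replicate 3. The change with CPSF1 sh2 was called with filterByExpr (adjusted p = 0.0415), with no filter beyond 1 count (0.0343) and without replicate 3 of CTRL sh, CPSF1 sh1 or CPSF1 sh2, down to -0.26 (adjusted p = 0.0184) without the last. PMAIP1 in 22Rv1 cells was at 13.8, 13.99 and 16.4 CPM with CTRL sh, 16.9, 16.8 and 16.04 CPM with CPSF1 sh1 and 15.2, 18.6 and 16.1 CPM with CPSF1 sh2, with overlap, and neither 0.18 (interval -0.019 to 0.38) nor 0.19 (-0.010 to 0.39) was called.

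BBC3 (chr19:47724081-47736023, minus strand, 2093 bases of exon) encodes PUMA, which binds all the pro-survival members named here. In LNCaP95 cells BBC3 was at 27.98, 24.1 and 30.6 CPM with CTRL sh, 21.7, 24.4 and 17.1 CPM with CPSF1 sh1 and 11.6, 13.5 and 10.8 CPM with CPSF1 sh2. With CPSF1 sh2 all libraries lay below the controls, and with CPSF1 sh1 the ranges overlapped. BBC3 fell by 1.15 on the log2 scale with CPSF1 sh2 (SE 0.13, adjusted p = 4.81e-08) and by 0.35 with CPSF1 sh1 (SE 0.11, adjusted p = 0.00737). The smaller fall was -0.24 (adjusted p = 0.0524) without CPSF1 sh1 replicate 3. The hairpins differed by -0.80 (SE 0.13, adjusted p = 7.62e-05).

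BBC3 was higher with at least 1 hairpin in the other lines, by smaller amounts. LNCaP cells had 17.8, 18.4 and 14.5 CPM with CTRL sh, 21.1, 19.4 and 19.3 CPM with CPSF1 sh1 and 15.95, 16.03 and 16.5 CPM with CPSF1 sh2. The 22Rv1 libraries, in which BBC3 was most abundant, had 45.97, 45.2 and 38.9 CPM with CTRL sh, 47.96, 49.2 and 53.4 CPM with CPSF1 sh1 and 47.2, 49.3 and 51.1 CPM with CPSF1 sh2. In both lines the libraries with CPSF1 sh1 lay above the controls, and those with CPSF1 sh2 did so in 22Rv1 and overlapped in LNCaP. BBC3 was called higher with CPSF1 sh1 in LNCaP, by 0.24 (SE 0.097, adjusted p = 0.0344), and with both hairpins in 22Rv1 cells, by 0.21 (SE 0.071, adjusted p = 0.0473) and 0.19 (SE 0.071, adjusted p = 0.0447). All 3 calls were lost with DESeq2 (DESeq2 adjusted p = 0.0842, 0.0872 and 0.076). The 22Rv1 calls were lost with filterByExpr (adjusted p = 0.0508 and 0.0518) as well, and the second with no filter beyond 1 count (0.055). The LNCaP call was lost with no filter beyond 1 count (0.0633). All 3 were also lost without single libraries. These were CTRL sh replicate 3, CPSF1 sh1 replicate 1 or 2 and CPSF1 sh2 replicate 2 for LNCaP, any but CPSF1 sh1 replicate 1 for CPSF1 sh1 in 22Rv1, and CTRL sh replicate 2 or 3, CPSF1 sh1 replicate 2 or any CPSF1 sh2 library for CPSF1 sh2 in 22Rv1. Without CTRL sh replicate 3 of the line, the lowest of the controls in both, the values were 0.14 (adjusted p = 0.207), 0.14 (adjusted p = 0.205) and 0.12 (adjusted p = 0.203).

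BID (chr22:18216906-18257536, minus strand, 2807 bases of exon), whose product links caspase 8 to the mitochondria, fell in LNCaP and rose in 22Rv1 cells. In LNCaP cells BID was at 22.7, 25.5 and 21.1 CPM with CTRL sh, 13.9, 14.02 and 14.1 CPM with CPSF1 sh1 and 15.3, 14.3 and 13.3 CPM with CPSF1 sh2. It was 1.65-fold lower with CPSF1 sh1 (-0.72, SE 0.095, adjusted p = 1.77e-06) and 1.59-fold lower with CPSF1 sh2 (-0.67, SE 0.091, adjusted p = 2.05e-06), without overlap. LNCaP95 cells, the highest in BID, had 28.6, 29.4 and 29.8 CPM with CTRL sh, 29.2, 30.98 and 34.96 CPM with CPSF1 sh1 and 31.1, 28.7 and 29.7 CPM with CPSF1 sh2, with overlap. Neither 0.14 (interval -0.0056 to 0.28) nor 0.075 (-0.076 to 0.23) was called there. The change with CPSF1 sh1 was called with library size alone (0.24, adjusted p = 0.00754) and without CPSF1 sh1 replicate 1 (0.20, adjusted p = 0.0382). In 22Rv1 cells, the lowest in BID, it was at 6.48, 6.59 and 7.495 CPM with CTRL sh, 9.66, 8.28 and 8.31 CPM with CPSF1 sh1 and 9.43, 11.1 and 10.3 CPM with CPSF1 sh2. It rose there by 0.60 (SE 0.12, adjusted p = 9.88e-04) with CPSF1 sh2 and by 0.37 (SE 0.12, adjusted p = 0.0474) with CPSF1 sh1, both without overlap. The call with CPSF1 sh1 was lost with DESeq2 (adjusted p = 0.173) and without any 1 of the 9 libraries other than CPSF1 sh1 replicate 3, without which it was 0.40 (adjusted p = 0.0353). Among the fits with a library left out, the highest p was that without CTRL sh replicate 1, where the value was 0.33 (adjusted p = 0.159). With the replicate block, filterByExpr and no filter beyond 1 count the call was also lost (adjusted p = 0.0675, 0.0515 and 0.0576).

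BCL2L11 (chr2:111876955-111926024, plus strand, 6660 bases of exon) encodes BIM, which can bind every pro-survival member and the effectors. It rose in LNCaP95 cells, from 61.9, 63.8 and 57.4 CPM with CTRL sh to 72.1, 67.2 and 69.5 CPM with CPSF1 sh1 and 82.9, 75.6 and 82.4 CPM with CPSF1 sh2. The rises were 0.22 (SE 0.056, adjusted p = 0.00191) and 0.44 (SE 0.056, adjusted p = 5.02e-07), and the hairpins differed by 0.22 (SE 0.054, adjusted p = 0.00338). No control overlapped a knockdown library. LNCaP cells had 61.8, 59.9 and 65.9 CPM with CTRL sh, 55.7, 55.4 and 52.7 CPM with CPSF1 sh1 and 49.5, 56.02 and 54.6 CPM with CPSF1 sh2, with all knockdown libraries below the controls. There BCL2L11 changed by -0.19 (SE 0.059, adjusted p = 0.00846) and -0.20 (SE 0.057, adjusted p = 0.00398), and the first was -0.15 (adjusted p = 0.0535) without CTRL sh replicate 3. Its 22Rv1 levels stayed between 37.1 and 42.5 CPM in all 9 libraries, with changes of 0.026 (interval -0.10 to 0.15) and 0.10 (-0.016 to 0.22), not called.

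BAD (chr11:64037302-64052141, minus strand, 1530 bases of exon) binds BCL2 and BCL-XL when it is not phosphorylated, and over the 27 libraries it ranged from 53.6 to 73.3 CPM, the narrowest range of the members as a ratio. It was called in LNCaP95 cells alone, where it was at 60.9, 53.6 and 55.004 CPM with CTRL sh, 61.5, 61.9 and 63.2 CPM with CPSF1 sh1 and 61.3, 73.3 and 67.8 CPM with CPSF1 sh2. The changes there were 0.16 (SE 0.063, adjusted p = 0.03) with CPSF1 sh1 and 0.30 (SE 0.064, adjusted p = 2.64e-04) with CPSF1 sh2, and every knockdown library lay above every control. With library size alone the value with CPSF1 sh1 was 0.26. The call with CPSF1 sh1 was lost with DESeq2 (adjusted p = 0.0518), filterByExpr (0.0911) and no filter beyond 1 count (0.0891), and without CTRL sh replicate 2 or 3 or any 1 library of CPSF1 sh1, up to 0.12 (adjusted p = 0.101) without CTRL sh replicate 2. Elsewhere the change of BAD was -0.029 and 0.049 in LNCaP and -0.023 and -0.13 in 22Rv1 cells, not called. With CPSF1 sh2 in 22Rv1 cells, however, all BAD libraries (58.2 to 63.7 CPM) lay below the controls (65.97 to 68.3 CPM). That fall was called without CPSF1 sh1 replicate 3 (-0.13, adjusted p = 0.0292).

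By count, LNCaP cells had 8 of 10 members called with CPSF1 sh1, 4 higher and 4 lower, where 62.6% of 11096 genes were called (31.2% higher and 31.3% lower). With CPSF1 sh2 there were 6, 3 each way, beside 64.6% of genes (32.1% higher and 32.5% lower). LNCaP95 cells had 8 with CPSF1 sh1, 4 each way, beside 66.4% of 11143 genes (33.1% higher and 33.3% lower). CPSF1 sh2 gave 7 in LNCaP95, 4 higher and 3 lower, beside 73.4% (36.5% higher and 36.9% lower). When LNCaP95 libraries were scaled by size alone, the split of all called genes moved from 3683 higher and 3712 lower to 4861 and 2643 with CPSF1 sh1, and from 4072 and 4109 to 4763 and 3507 with CPSF1 sh2.

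In 22Rv1 cells each hairpin gave 4 members called, BAX, BCL2L1, BBC3 and BID, all higher. The background there was 19.9% of 11728 genes with CPSF1 sh1 (8.79% higher and 11.1% lower) and 40% with CPSF1 sh2 (19.1% higher and 20.9% lower). The median log2 change of the 10 members was between -0.11 and 0.18 in the 6 comparisons, with that of all genes within 0.0043 of 0. With both hairpins pooled, 7 members were called in LNCaP, 7 in LNCaP95 cells and 4 for 22Rv1 (2 without CTRL sh replicate 3), beside 62.1%, 66.9% and 26.9% of genes. With a library left out, 6 to 7 were called in LNCaP and 5 to 8 in LNCaP95. The pooled call of PMAIP1 in LNCaP was lost without CTRL sh replicate 1 or 2. In LNCaP95, those of BCL2 and BAD were lost without CTRL sh replicate 2, and that of BBC3 without CTRL sh replicate 3. The shares called in LNCaP and LNCaP95 lie near the background.

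Between hairpins, BAX was the only member called in LNCaP (14.8% of genes called) and in 22Rv1 cells (11.3%). In LNCaP95 cells 6 members were called, beside 34.1% of genes. BAX, BCL2L11 and BCL2L1 were higher with CPSF1 sh2, and BBC3, PMAIP1 and BCL2 were lower.

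The pooled change also differed between lines. Between LNCaP95 and LNCaP, 8 members differed in their change (background 41.9% of 14441 genes), 7 between 22Rv1 and LNCaP (34.9%) and 7 between 22Rv1 and LNCaP95 (44.6%). MCL1 fell further in LNCaP95 than in LNCaP, with a difference of -0.36 (SE 0.049, adjusted p = 6.33e-07), and its change in 22Rv1 lay above both. BID differed most between 22Rv1 and LNCaP (1.19, SE 0.13, adjusted p = 8.38e-08), and PMAIP1 most between 22Rv1 and LNCaP95 (1.44, SE 0.14, adjusted p = 3.29e-09). No difference in the BAX change was called between LNCaP95 and LNCaP (-0.11, interval -0.37 to 0.16) or between 22Rv1 and LNCaP95 (-0.24, interval -0.50 to 0.022). The BAX rise was smaller in 22Rv1 than in LNCaP, with a difference of -0.34 (SE 0.13, adjusted p = 0.038). That call was lost with library size alone (adjusted p = 0.0501) and without any of 11 libraries, namely any CTRL sh library of both lines, any CPSF1 sh2 library of LNCaP or CPSF1 sh1 replicate 1 or 2 of 22Rv1, up to -0.30 (adjusted p = 0.112) without 22Rv1 CTRL sh replicate 1. These comparisons share the libraries of a line, so they are not independent of each other.

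Summed per length, BAX and BAK1 mRNA came to 0.375 ± 0.00330001 of the summed MCL1, BCL2L1 and BCL2 mRNA in LNCaP CTRL sh cells (ratio, SD, n = 3), and to 0.571 ± 0.0215 and 0.655 ± 0.0168 with the 2 CPSF1 hairpins. In LNCaP95 cells the ratio was 0.364 ± 0.00206 with CTRL sh, 0.6503 ± 0.00477 with CPSF1 sh1 and 0.744 ± 0.0191 with CPSF1 sh2. The 22Rv1 ratio was 0.475 ± 0.0245, 0.569 ± 0.0607 and 0.648 ± 0.0333 in the same order. All knockdown libraries lay above the controls of their line, and no test was made of these sums, which rest on members already described.

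The make-up of the pro-survival sum shifted as well. In LNCaP95 cells the sum went from 114 ± 3.34 CPM per kb with CTRL sh to 78.3 ± 0.494 with CPSF1 sh1 and 79.9 ± 1.06 with CPSF1 sh2. In LNCaP cells it was 125 ± 1.12, 127 ± 1.01 and 118 ± 2.92 CPM per kb, while the share of MCL1 went from 68.1 ± 1.27% to 54.4 ± 2.14% and 55.5 ± 0.586%. MCL1 made up 83.7 ± 0.591% of the sum in 22Rv1 CTRL sh cells and 81.5 ± 0.265% with CPSF1 sh2. The ratio of summed BH3-only to pro-survival mRNA in LNCaP95 was 0.749 ± 0.0223, 1.02 ± 0.00925 and 0.978 ± 0.0361 with CTRL sh, CPSF1 sh1 and CPSF1 sh2, while the BH3-only sum itself was 85.2 ± 3.13, 79.6 ± 1.23 and 78.1 ± 3.79 CPM per kb. BAD made up 43.3 ± 1.56%, 51.03 ± 0.92% and 56.3 ± 2.51% of that LNCaP95 sum in the same order, and PMAIP1 18.2 ± 0.563%, 9.04 ± 0.465% and 7.22 ± 0.865%. The ratio of BH3-only to pro-survival mRNA was 0.609 ± 0.02198, 0.5502 ± 0.0135 and 0.594 ± 0.0196 for LNCaP, lower with CPSF1 sh1 and overlapping the controls with CPSF1 sh2. In 22Rv1 it was 0.613 ± 0.00812, 0.645 ± 0.0415 and 0.612 ± 0.0241, with overlap.

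**Figure D3:**
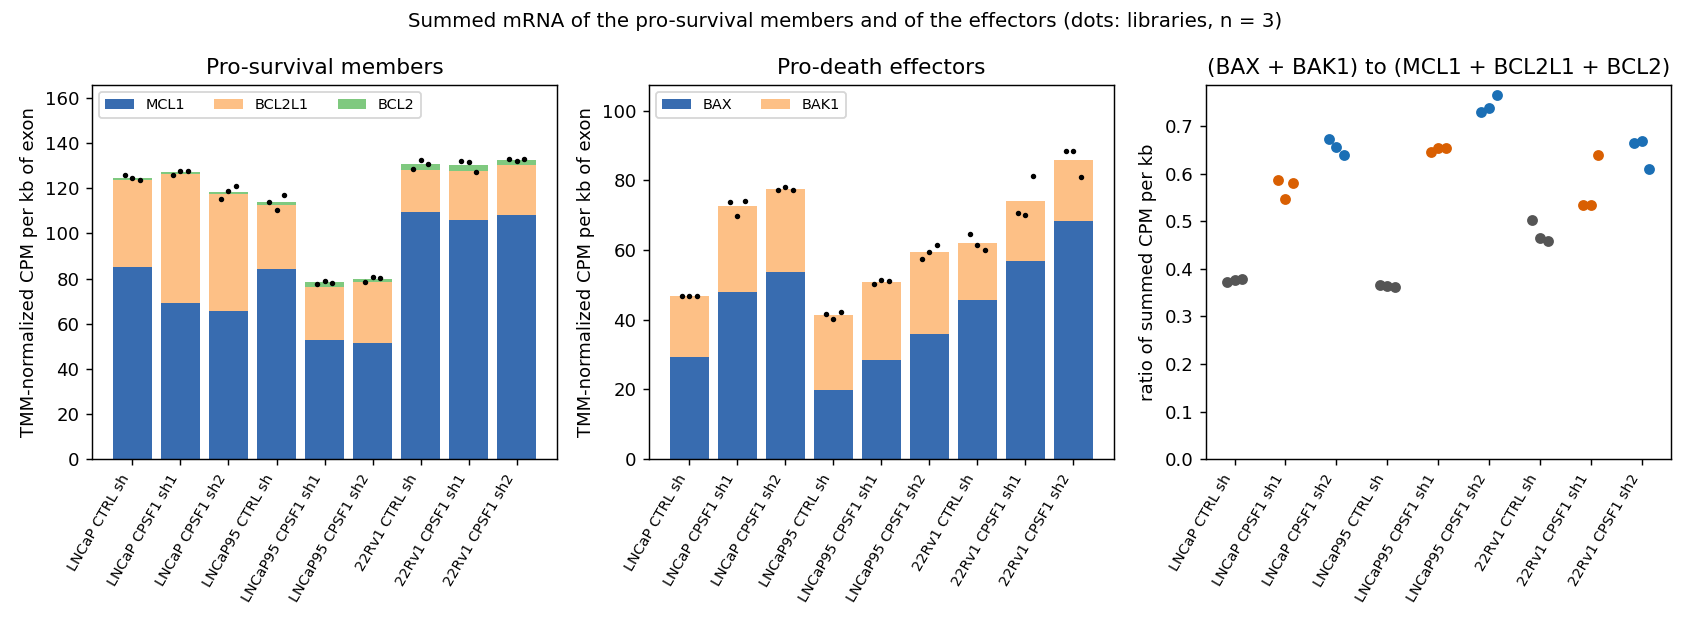
Summed level of the pro-survival members (left) and of the effectors (middle) as stacked means of TMM-normalized CPM per kb of exon in 9 groups, with dots for the sum in each of 3 libraries, and the ratio of the effector sum to the pro-survival sum in each library (right; grey CTRL sh, orange CPSF1 sh1, blue CPSF1 sh2). The ratio in knockdown libraries lies above that of the controls in each line.

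A wider set of 47 apoptosis genes in 8 lists was read beside the members. In LNCaP cells 15 of 41 tested were called higher and 9 lower with CPSF1 sh1, beside 62.6% of all genes called, and 14 higher and 13 lower with CPSF1 sh2, beside 64.6%. LNCaP95 cells had 7 of 42 higher and 16 lower with CPSF1 sh1 (66.4% of all genes called), and 9 higher and 16 lower with CPSF1 sh2 (73.4%). For 22Rv1, 3 of 40 went each way with CPSF1 sh1 (19.9%) and 7 each way with CPSF1 sh2 (40%). These shares lie near or below those of all genes. BCL2A1, BCL2L10, HRK, BCL2L15 and CASP10 were at or below 2 CPM in at least 1 library of each line and were not tested.

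BNIP3, BNIP3L and ATF4 were called lower with both hairpins in all 3 lines, as were 3.16% of genes tested in all 6 comparisons. BNIP3 and BNIP3L are hypoxia-induced genes of mitophagy related to the BCL2 family. BNIP3 changed by -1.09 and -0.91 for LNCaP, by -0.97 and -1.40 for LNCaP95 and by -0.67 and -0.91 for 22Rv1, with CPSF1 sh1 first. BNIP3L changed by -1.10 and -1.21 for LNCaP, by -0.99 and -1.67 for LNCaP95 and by -0.42 and -0.65 for 22Rv1. ATF4, a transcription factor of the integrated stress response, changed by -0.42 and -0.29 for LNCaP, by -0.57 and -0.70 for LNCaP95 and by -0.25 and -0.38 for 22Rv1.

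DDIT3, which encodes the stress factor CHOP, fell in LNCaP95 cells, where it was far higher at the start, from 322 ± 11.5 CPM (SD, n = 3) with CTRL sh to 136 ± 5.03 with CPSF1 sh1 and 94.9 ± 2.83 with CPSF1 sh2. It was called higher with CPSF1 sh1 in LNCaP, by 0.24 (SE 0.058, adjusted p = 0.00144), and not called with CPSF1 sh2 there (-0.030). Its log2 changes in LNCaP95 were -1.22 (SE 0.042, adjusted p = 3.47e-15) and -1.72 (SE 0.045, adjusted p = 1.46e-17). BMF, another BH3-only gene, changed in LNCaP by -0.71 (SE 0.13, adjusted p = 1.17e-04) and -1.09 (SE 0.13, adjusted p = 6.20e-07). BIRC3, of the IAP family, changed in LNCaP by -1.34 (SE 0.15, adjusted p = 1.49e-07) with CPSF1 sh2 and by -0.057 (SE 0.13, adjusted p = 0.724) with CPSF1 sh1. In LNCaP95 BIRC3 changed by -0.83 and -0.70, both called, and it was not tested in 22Rv1 cells. BCL2L2, named after its values were seen as the only other pro-survival gene tested, was lower in LNCaP (-0.30 and -0.27) and LNCaP95 (-0.73 and -0.79), called with each hairpin, and -0.0035 and 0.050 in 22Rv1 cells, not called. It overlaps a read-through gene, so its counts are uncertain.

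The lists are given as the number called higher and the number called lower, with CPSF1 sh1 and then with CPSF1 sh2. For the 7 apoptosome and caspase genes these were 4 and 1 then 2 and 2 for LNCaP, 1 and 2 then 2 and 2 for LNCaP95 and 0 and 0 then 1 and 3 for 22Rv1. Of 7 death receptor pathway genes tested they were 4 and 0 then 3 and 0 for LNCaP, 2 and 3 then 3 and 3 for LNCaP95 and 0 and 0 then 2 and 0 for 22Rv1. The 7 genes of IAP proteins and their antagonists, 6 of them tested in 22Rv1, had 1 and 1 then 2 and 2 for LNCaP, 1 and 3 then 0 and 3 for LNCaP95 and 1 and 0 then 0 and 0 for 22Rv1. The 3 outer membrane channel genes (VDAC1, VDAC2 and VDAC3) had 2 and 0 then 2 and 0 for LNCaP, 0 and 1 then 0 and 0 for LNCaP95 and 2 and 0 then 2 and 0 for 22Rv1. For 7 genes that regulate the transcription of the family or the turnover of MCL1, DDIT3 and ATF4 among them, the numbers were 1 and 2 then 1 and 3 for LNCaP, 2 and 4 then 2 and 4 for LNCaP95 and 0 and 1 then 2 and 1 for 22Rv1. Of the 3 other pro-death family genes tested, BMF among them, 2 and then 3 were called lower in LNCaP, none higher, and none was called in the other lines. The BCL2-related genes outside the core family, BNIP3 and BNIP3L among them, had 3 and 2 then 4 and 2 for LNCaP, 1 and 2 then 2 and 3 for LNCaP95 and 0 and 2 then 0 and 3 for 22Rv1, of 7 tested in LNCaP95 and 6 in the other lines. The shares of all genes called in each direction were given with the members' counts.

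**Figure D4:**
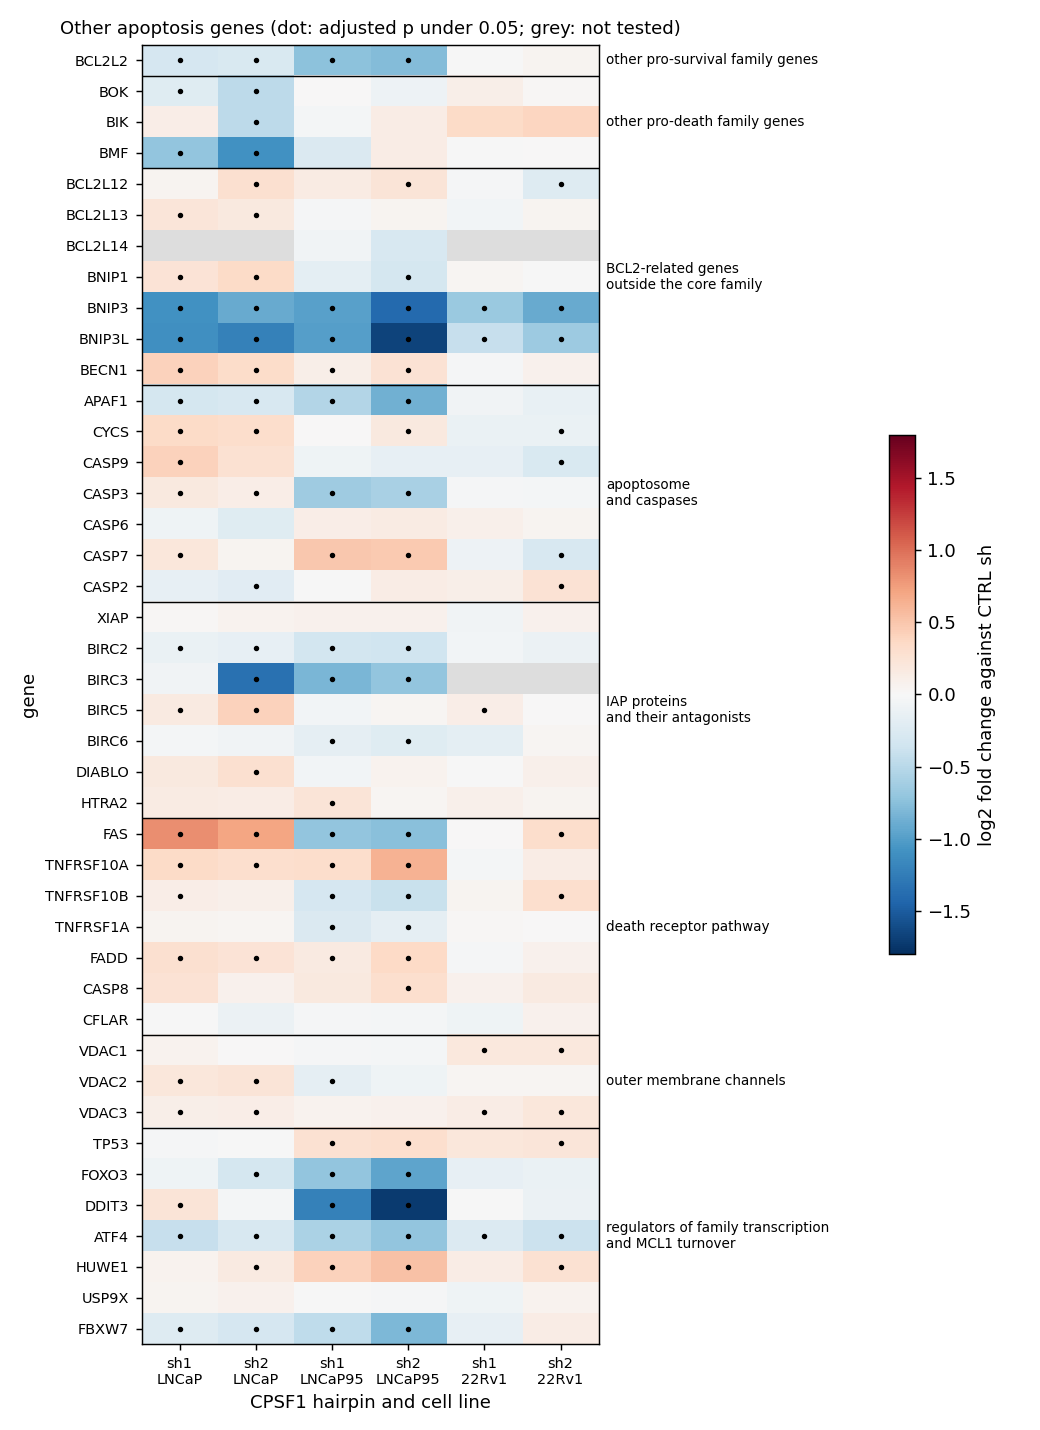
Log2 fold change against CTRL sh (colour) of the tested genes of the 8 further apoptosis lists (y axis) with each CPSF1 hairpin in each line (x axis). Dots mark an adjusted p-value below 0.05 and grey cells were not tested. BNIP3, BNIP3L and ATF4 are blue with a dot in all 6 columns, and DDIT3 in the 2 LNCaP95 columns.

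Over the 27 libraries, the log2 CPM of BCL2 ran most closely, of 10317 genes, with GGH (0.952), NUP107 (0.948), MSH6 (0.947), as Pearson's r. For BCL2L1 these genes were KIAA0513 (0.986), GPR158 (0.974), SH3GL1 (0.972), and for MCL1 DALRD3 (0.967), NUDT21 (0.961), PNRC2 (0.959). The 27 points share lines and hairpins and are not independent, so the coefficients are a description. The nearest upstream neighbour on the same strand was ACOXL, 1156 bases before BCL2L11, which was not tested, as was DHDH, 9891 bases before BAX. Those of the other members were 7598 to 669174 bases away. KDSR ended 7598 bases before BCL2, with a change of 0.18 (adjusted p = 0.00589) with CPSF1 sh1 in LNCaP95 and no call in the other 5 comparisons. ENSA, 21261 bases before MCL1, was called lower in LNCaP (-0.27 and -0.37 with CPSF1 sh1 and CPSF1 sh2) and LNCaP95 (-0.26 and -0.18), with 0.0015 and 0.0044 in 22Rv1, not called. MICAL3, 12879 bases before BID, was called lower in LNCaP (-0.28 and -0.26) and LNCaP95 (-0.35 and -0.62). UQCC2, 115107 bases before BAK1, was called lower in the same 4 comparisons, and TRMT112, 31791 bases before BAD, in both of LNCaP95. None of these 3 was called in 22Rv1 cells.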

How the data were processed

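RNA-seq counts of 27 libraries were analysed. The authors made stranded mRNA libraries, aligned reads to hg19 (GRCh37) with HISAT2 2.1.0, then assigned fragments to exons by featureCounts of Subread (2.0.3 in the submitters' processing notes, while the methods give another version) in reverse-stranded mode with Ensembl annotation, and deposited raw counts per gene, unnormalized, with coordinates and exon lengths. Handling of duplicate reads was not given in the sources used here.

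Groups came from the sample titles. The replicates are described as biological, but separate infections are not stated, and p-values then measure only the spread between these samples. Fits used edgeR 4.0.16 (R 4.3.3, limma 3.58.1) with TMM, the quasi-likelihood F-test (legacy setting) and Benjamini-Hochberg adjustment over all genes tested. Each line was fitted alone on genes above 2 CPM (by library size alone) in all 9 libraries, with 3 groups or with both hairpins pooled. Lines were compared in 9 control libraries and, for the change, in all 27, after filterByExpr. SE is the fold change over the root of F, and intervals are 1.96 SE either way. CPM per kb divides TMM-scaled CPM by exon length, and similarity used log2 of CPM plus 0.5. The script was tested on simulated data. Some luminal markers are not reported here.

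Chi-square per degree of freedom between replicates was 1.39 to 7.31, so spread exceeded counting error, and the biological coefficient of variation was 3.25 to 7.09%. Alternatives were RLE factors, library size alone, DESeq2 1.42.0, edgeR 4 quasi-likelihood, other filters, a replicate block and each library left out. Members and lists were chosen with earlier results of these data known. All 10 members are named, other list genes where called the same way in all 6 comparisons or called and changed at least 2-fold with at least 1 hairpin, and for BCL2, BCL2L1 and MCL1 the 3 genes with the highest correlation. BCL2L2 falls outside this rule.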

Additional observations from a re-analysis of the deposited data

Results flagged for a closer look

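The pooled log2 change with CPSF1 knockdown differed between lines, by a test of the difference itself (edgeR, adjusted p below 0.05), in 22 of 30 member comparisons. Of 14441 genes, 41.9% were called for LNCaP95 minus LNCaP, 34.9% for 22Rv1 minus LNCaP and 44.6% for 22Rv1 minus LNCaP95. The comparisons share libraries and are not independent of each other. The change in LNCaP95 minus that in LNCaP was 0.50 for BCL2L11, 0.67 for BCL2 and 0.78 for BID, and -0.36 for MCL1, -0.37 for BAK1, -1.02 for PMAIP1, -0.64 for BCL2L1 and -0.80 for BBC3. The change in 22Rv1 minus that in LNCaP was 0.30 for MCL1, 0.27 for BCL2L11, 0.42 for PMAIP1 and 1.19 for BID, and -0.38 for BAK1, -0.28 for BCL2L1 and -0.34 for BAX. The change in 22Rv1 minus that in LNCaP95 was 0.67 for MCL1, 1.44 for PMAIP1, 0.36 for BCL2L1, 0.90 for BBC3 and 0.40 for BID, and -0.24 for BCL2L11 and -0.28 for BAD.

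Opposite calls underlie some of these values. BID fell in LNCaP by 0.69 and rose in 22Rv1 cells by 0.49 on the log2 scale with both hairpins pooled, the latter 0.45 (adjusted p = 0.0543) without 22Rv1 CTRL sh replicate 1. With the same pooling, BCL2L11 fell in LNCaP by 0.20 and rose in LNCaP95 by 0.33. The BAX difference between 22Rv1 and LNCaP had an adjusted p of 0.038, and BCL2L11 between 22Rv1 and LNCaP95 one of 0.0311, which rose to 0.103 without LNCaP95 CTRL sh replicate 3 and was also lost without 22Rv1 CTRL sh replicate 1 or 3. For the change in 22Rv1 minus that in LNCaP, the calls of BCL2L1 and BCL2L11 were lost without LNCaP CTRL sh replicate 3 (-0.25 and 0.23), that of BCL2L1 also without 22Rv1 CTRL sh replicate 2, and that of PMAIP1 without LNCaP CTRL sh replicate 2 or 22Rv1 CTRL sh replicate 1 or 2 (0.37 without the first). The BCL2 difference between LNCaP95 and LNCaP was 0.49 (adjusted p = 0.0689) without LNCaP95 CTRL sh replicate 2 and 0.56 (adjusted p = 0.066) without LNCaP CTRL sh replicate 1. LNCaP and 22Rv1 cells grew in the same medium. For differences that involve LNCaP95, the part of the medium cannot be told apart from that of the line.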

How the results depend on the processing

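Of 2604 values of members under the alternatives, 2461 kept their direction and their side of the threshold, 109 lost the call, 18 gained one and 16 changed sign. Those that changed sign lay near 0. By setting, library size alone gave 0.065 for BCL2L1 with CPSF1 sh2 in LNCaP95 and 0.0074 for MCL1 with CPSF1 sh2 in 22Rv1, where RLE factors gave 3.9e-04 and DESeq2 4.8e-04. With each library left out, values ranged from -0.16 to 0.051 for BCL2 with CPSF1 sh2 in LNCaP, from -0.14 to 0.028 for BBC3 with CPSF1 sh2 in LNCaP, from -0.074 to 0.038 for BCL2L1 with CPSF1 sh2 in LNCaP95, from -0.016 to 0.061 for BCL2L11 with CPSF1 sh1 in 22Rv1, from -0.079 to 0.0044 for BAD with CPSF1 sh1 in 22Rv1, from -0.017 to 0.0077 for MCL1 with CPSF1 sh2 in 22Rv1 and from -0.042 to 1.7e-04 for MCL1 in control LNCaP95 minus LNCaP cells. The count of members called fell from 4 with CPSF1 sh1 in 22Rv1 to 1 with DESeq2, 2 with the replicate block and 2 with filterByExpr, and to between 1 and 3 with a library left out. With libraries left out, it ranged from 2 to 4 with both hairpins in 22Rv1, from 0 to 2 and from 0 to 1 between hairpins in LNCaP and 22Rv1, and from 4 to 7 for the change in 22Rv1 minus that in LNCaP, where LNCaP CTRL sh replicate 3 and 22Rv1 CTRL sh replicate 2 gave the 4. The cause was not tested. The replicate block gave 3 calls between hairpins in LNCaP. It ended both 22Rv1 calls of BBC3 (adjusted p = 0.0683 and 0.0629) and that of BID with CPSF1 sh1 in 22Rv1 (0.0675). Samples with the same number mostly did not deviate together (r from -0.272 to 0.322, 8 of 36 pairs over 0.1). In LNCaP the pairs of CPSF1 sh1 and CPSF1 sh2 gave 0.279, 0.016 and 0.206. Whether samples of the same number shared a batch was not tested. Library size alone moved the median of all genes by 0.11 in the LNCaP95 minus LNCaP change and by -0.12 in the 22Rv1 minus LNCaP95 change, where BID was then 0.30 (adjusted p = 0.057). The lowest counts were those of BCL2 (48) and BID (72).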
